A study of Homo sapiens and Pan troglodytes with 11 samples.

Results

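The 10 genes of a probe panel were compared between human and chimpanzee neurons at the level of libraries and of single cells. The cells were those of screen replicate 1, 10177 of the 41950 cells of the series, in 5 of its 11 libraries. All deposited cells of these libraries and all 10 gene probes of their panel were used, and columns of guide barcodes were left out. Human neurons came from WTC11, an induced pluripotent stem cell line, in 3 libraries with 1364, 1199 and 1707 cells (human 1, 2 and 3). Chimpanzee neurons came from the line C3649 in 2 libraries with 2800 and 3107 cells (chimpanzee 1 and 2). All groups were excitatory neurons grown for 2 weeks from stem cells and carried pooled guides for CRISPR interference, which lowers the activity of a chosen DNA site with a nuclease-dead Cas9. The series asks what human accelerated regions do in such neurons. These are stretches of DNA conserved among other vertebrates whose sequence changed at an accelerated rate in human ancestry. Each species is 1 line, so a difference between species cannot be told apart from a difference between these lines. The labels do not say that the libraries were separate cultures, and p-values then measure only the spread between these libraries. Of 27 marker genes of excitatory and inhibitory neurons, glia, progenitors and pluripotent cells, the panel held 0, so the labelled cell type could not be checked.

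The assay, HyPR-seq, counts unique molecular identifiers (UMIs) from probes ligated on chosen transcripts in single cells. The value of a gene in a library is its share of the UMIs of all 10 genes, and a rise of 1 gene therefore lowers the shares of the others. How well the probes match chimpanzee transcripts was not examined. Gene UMIs summed to 577150, 420217 and 503486 in human 1 to 3 and to 1818477 and 837326 in chimpanzee 1 and 2. The median cell had 360.5, 321 and 266 gene UMIs in human 1 to 3, and 567.5 and 244 in chimpanzee 1 and 2. The chimpanzee libraries were thus the deepest and the shallowest, and the human minus chimpanzee difference of the log2 median was -0.25 (two-sided exact permutation test over 10 splits, p = 0.8). It was 0.36 without chimpanzee 1. The human minus chimpanzee difference in mean cell number was -1530.2 (1423 ± 259 in human, SD, n = 3, and 2954 ± 217 in chimpanzee, n = 2, exact p = 0.1, the smallest these 5 libraries allow). At most 17 cell barcodes were shared by any pair of these libraries. Libraries of 1 species differed far beyond counting noise, with a chi-square per degree of freedom of at least 765, so each was counted as 1 sample.

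The genes lie in 3 neighbourhoods of the genome. ARHGAP5, AKAP6, NPAS3, BAZ1A and PSMA6 lie in that order on chromosome 14, from 32077304 to 35317493 in RefSeq's GRCh38.p14 annotation. TENM3 (181447613 to 182803024) and DCTD (182890091 to 182917611) are neighbours on chromosome 4, and LAPTM4A, PUM2 and RHOB lie between 20032650 and 20449440 on chromosome 2. NPAS3 is a transcription factor of the basic helix-loop-helix PAS family that is active in developing and adult brain. BAZ1A is a subunit of chromatin remodelling complexes that slide nucleosomes. AKAP6 holds protein kinase A at the nuclear envelope and other membranes, and TENM3 is a teneurin, a transmembrane protein through which neurons recognise their synaptic partners.

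Sequence is shown for AKAP6, NPAS3 and TENM3, because chimpanzee cells low in AKAP6 were high in NPAS3 and TENM3 (described further on). RefSeq promoter windows were matched for 9 of the 10 genes, all but BAZ1A. Each line gives the 250 bases before 1 annotated human transcription start, 5′ to 3′ on the gene's strand, and capitals mark the E-box letters CANNTG, a motif that basic helix-loop-helix proteins can bind. The windows are chr14:32329048-32329297 for AKAP6, which ends where the annotated gene begins, chr14:32938629-32938878 for NPAS3 and chr4:182143713-182143962 for TENM3, all on the plus strand. The last 2 lie inside the full annotated extent of their genes, so other starts exist.
AKAP6: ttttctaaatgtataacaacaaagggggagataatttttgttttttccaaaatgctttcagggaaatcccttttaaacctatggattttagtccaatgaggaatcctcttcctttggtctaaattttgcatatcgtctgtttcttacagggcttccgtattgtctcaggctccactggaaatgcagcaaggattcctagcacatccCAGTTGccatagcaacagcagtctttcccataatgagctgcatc
NPAS3: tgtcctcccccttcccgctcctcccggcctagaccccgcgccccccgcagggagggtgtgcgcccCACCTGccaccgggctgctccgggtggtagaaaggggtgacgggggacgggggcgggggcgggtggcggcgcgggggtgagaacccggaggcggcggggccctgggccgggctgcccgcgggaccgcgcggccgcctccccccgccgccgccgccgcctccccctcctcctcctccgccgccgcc
TENM3: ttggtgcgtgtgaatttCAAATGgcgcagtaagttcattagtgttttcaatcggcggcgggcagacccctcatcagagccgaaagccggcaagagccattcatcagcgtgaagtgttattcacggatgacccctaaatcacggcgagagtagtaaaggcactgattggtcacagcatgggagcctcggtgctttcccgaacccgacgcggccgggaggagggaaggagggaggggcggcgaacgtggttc
The windows differed in base composition. That of AKAP6 held 40% G and C with 2 CpG pairs, that of NPAS3 82.8% with 33 CpG pairs and that of TENM3 56.8% with 20. The median of 35116 windows of the same length was 58% and 11 CpG pairs. Each of the 3 windows held 1 E-box on either strand, as the motif reads alike on both, and 61.8% of all windows held at least 1. These matches describe letters only, and the assay does not measure these windows.

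How the species differ in each gene was asked first. Human neurons had higher shares of ARHGAP5 and AKAP6, and chimpanzee neurons had higher shares of NPAS3, BAZ1A and TENM3. edgeR's quasi-likelihood test called these 5 of 10 genes at an adjusted p of 0.05 (50%), 2 higher in human (20%) and 3 higher in chimpanzee (30%). In plain shares, the libraries of the species did not overlap for 7 of the 10 genes (70%), which adds DCTD and PUM2, both with higher chimpanzee values but not called. The test also scales the libraries by TMM factors, which plain shares leave out. Without these factors DCTD and PUM2 were not called either (edgeR on library totals, adjusted p = 0.247 for each). The 10 genes sit near candidate regions and are no sample of the transcriptome, so these percentages are the panel's own background. The widest 95% exact binomial interval of any share spanned 0.278 percentage points and covers counting error only.

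BAZ1A differed most. It made up 1.82%, 2.01% and 2.21% of gene UMIs in human 1 to 3, and 4.65% and 3.87% in chimpanzee 1 and 2. Every chimpanzee library was above every human one, by more than the spread within either species. The log2 ratio of human over chimpanzee was -1.03 ± 0.09 (SE; edgeR, adjusted p = 0.000586). BAZ1A also gave the fewest UMIs of the 10 genes in every human library, though UMIs of different genes depend on their probes and are no levels per length.

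NPAS3 made up 4.25%, 5.03% and 6.20% in the human libraries and 9.03% and 7.34% in the chimpanzee libraries. The groups did not overlap, but human 3 and chimpanzee 2 came closer to each other than either pair of extremes within the species. Its log2 ratio was -0.62 ± 0.14 (edgeR, adjusted p = 0.0113). Without chimpanzee 1 it was -0.47 and was no longer called (edgeR, adjusted p = 0.084). With 1 chimpanzee library left, such a fit takes its spread from the human libraries alone and assumes that the lone library varies like them.

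AKAP6, which lies next to NPAS3 on chromosome 14, went the other way. It made up 13.4%, 14.2% and 16.0% in the human libraries and 9.68% and 11.1% in the chimpanzee libraries. The log2 ratio was 0.53 ± 0.11 (edgeR, adjusted p = 0.0107). Without human 2 the ratio was 0.49 and the call was lost (edgeR, adjusted p = 0.0722).

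ARHGAP5, on the other side of AKAP6, made up 4.00%, 4.41% and 4.54% in human and 2.96% and 3.07% in chimpanzee libraries. Both groups were tight, and the log2 ratio was 0.57 ± 0.07 (edgeR, adjusted p = 0.00162). PSMA6, a subunit of the proteasome core and the last of the chromosome 14 genes, made up 4.12%, 5.40% and 5.47% in human and 3.28% and 5.30% in chimpanzee libraries. Its groups overlapped, and its log2 ratio was 0.27 ± 0.22 (edgeR, adjusted p = 0.288). The chimpanzee libraries decided this value: without chimpanzee 1 the ratio was -0.04, and without chimpanzee 2 it was 0.65 with a call (edgeR, adjusted p = 0.024), both with the spread of the human libraries alone.

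On chromosome 4, TENM3 made up 5.13%, 5.43% and 6.96% in human and 10.1% and 9.74% in chimpanzee libraries. The log2 ratio was -0.72 ± 0.11 (edgeR, adjusted p = 0.00262), and the gap between the groups was wider than either group. Its neighbour DCTD, which deaminates deoxycytidylate in nucleotide synthesis, made up 6.88%, 6.46% and 6.86% in human and 8.11% and 7.32% in chimpanzee libraries. Its log2 ratio of -0.14 ± 0.11 did not pass (edgeR, adjusted p = 0.288).

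On chromosome 2 no gene was called. PUM2, an RNA-binding protein that represses translation, made up 16.1%, 18.4% and 18.8% in human and 22.5% and 19.5% in chimpanzee libraries, with a log2 ratio of -0.19 ± 0.13 (edgeR, adjusted p = 0.261). RHOB, a small GTPase of actin and vesicle traffic, made up 31.5%, 30.3% and 22.01% in human and 19.6% and 24.4% in chimpanzee libraries. Human 3 stood below chimpanzee 2, and the log2 ratio was 0.42 ± 0.26 (edgeR, adjusted p = 0.261). LAPTM4A, a lysosomal membrane protein, made up 12.8%, 8.33% and 10.9% in human and 10.1% and 8.36% in chimpanzee libraries, which lay inside the human range (0.28 ± 0.23; edgeR, adjusted p = 0.288). With SEs of 0.23 and 0.26, differences of moderate size in LAPTM4A and RHOB could not be detected.

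**Figure D1:**
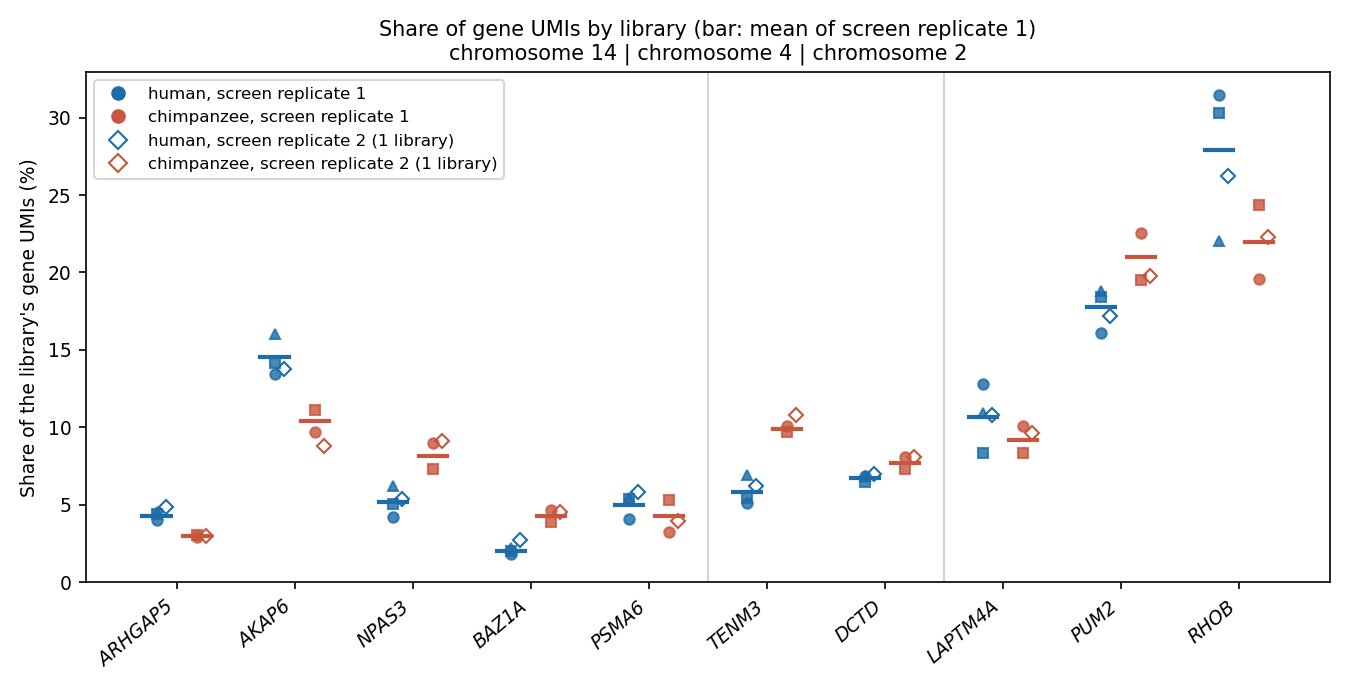
Share of each gene in the gene UMIs of a library, in percent, with 1 filled point per library of screen replicate 1, bars at group means and open points for the 1 library per species of screen replicate 2 with the same panel. BAZ1A, NPAS3 and TENM3 are higher in every chimpanzee library, AKAP6 and ARHGAP5 in every human one, and RHOB, LAPTM4A and PSMA6 overlap.

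By their library codes the libraries form 2 sets, human 1, human 2 and chimpanzee 1, and human 3 and chimpanzee 2, which the labels do not call batches. As the libraries of the species did not overlap for the 5 called genes, each set necessarily had the directions given above. With the set as a block the same 5 were called, with log2 ratios of -1.04 for BAZ1A, -0.62 for NPAS3, 0.55 for AKAP6, 0.56 for ARHGAP5 and -0.71 for TENM3 (edgeR, adjusted p at most 0.0265). DESeq2 also called 5 genes (6 at an unadjusted p under 0.05, against 5 by edgeR). Cells of equal depth gave the same order of the species. In cells with 100 to under 200, 200 to under 400 and 400 to under 800 gene UMIs, the libraries stood apart for the same 7 genes, in the same directions as over all cells. In UMIs per cell, which depend on depth, libraries stood apart for 3 genes (30%), all higher in chimpanzee. BAZ1A had 7.71, 7.06 and 6.52 UMIs per cell in human 1 to 3 and 30.2 and 10.4 in chimpanzee 1 and 2. NPAS3 had 18.0, 17.6 and 18.3 in human and 58.6 and 19.8 in chimpanzee libraries, and TENM3 had 21.7, 19.0 and 20.5 in human and 65.7 and 26.2 in chimpanzee libraries. Chimpanzee 1 had more than double the UMIs per cell of chimpanzee 2, so these levels varied more within chimpanzee than the shares did. AKAP6 overlapped on this scale, with 56.8, 49.7 and 47.3 UMIs per cell in human and 62.9 and 30.0 in chimpanzee libraries. The human calls for AKAP6 and ARHGAP5 are therefore statements about shares of the panel, not about UMIs per cell.

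A ratio of 2 genes within a library does not depend on the other genes or on scaling. Of the 45 pairs, 29 had library ratios that did not overlap between species (64.4%). The 3 pairs that differed most all had BAZ1A below the line. ARHGAP5 over BAZ1A had a mean log2 ratio of 1.10 in human libraries (1.04 to 1.13) and -0.49 in chimpanzee libraries (-0.65 to -0.33), a difference of 1.59. In human neurons ARHGAP5 probes thus gave more UMIs than BAZ1A probes, and in chimpanzee neurons fewer. AKAP6 over BAZ1A differed by 1.56 and RHOB over BAZ1A by 1.42. The smallest differences were those of ARHGAP5 over AKAP6 (0.03), DCTD over PUM2 (0.05) and PSMA6 over LAPTM4A (0.05). The neighbours ARHGAP5 and AKAP6 kept nearly 1 ratio across species, with log2 values of -1.82 to -1.69 in human and -1.86 to -1.71 in chimpanzee libraries.

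Screen replicate 2 had 1 library per species with the same panel (7562 human and 5512 chimpanzee cells), which the comparison above did not use. BAZ1A made up 2.72% in its human and 4.52% in its chimpanzee library, NPAS3 5.36% and 9.10%, and TENM3 6.22% and 10.8%. AKAP6 made up 13.8% and 8.78%, and ARHGAP5 4.88% and 3.01%. All 5 differences had the direction of screen replicate 1. Between the screens, the test of species by screen called 0 of the 10 genes (0%; edgeR, lowest adjusted p = 0.634, 0 genes at an unadjusted p under 0.05; DESeq2 also 0). With 1 library per species in screen replicate 2 its spread is taken from screen replicate 1, so a difference in size between the screens may not be detectable.

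**Figure D2:**
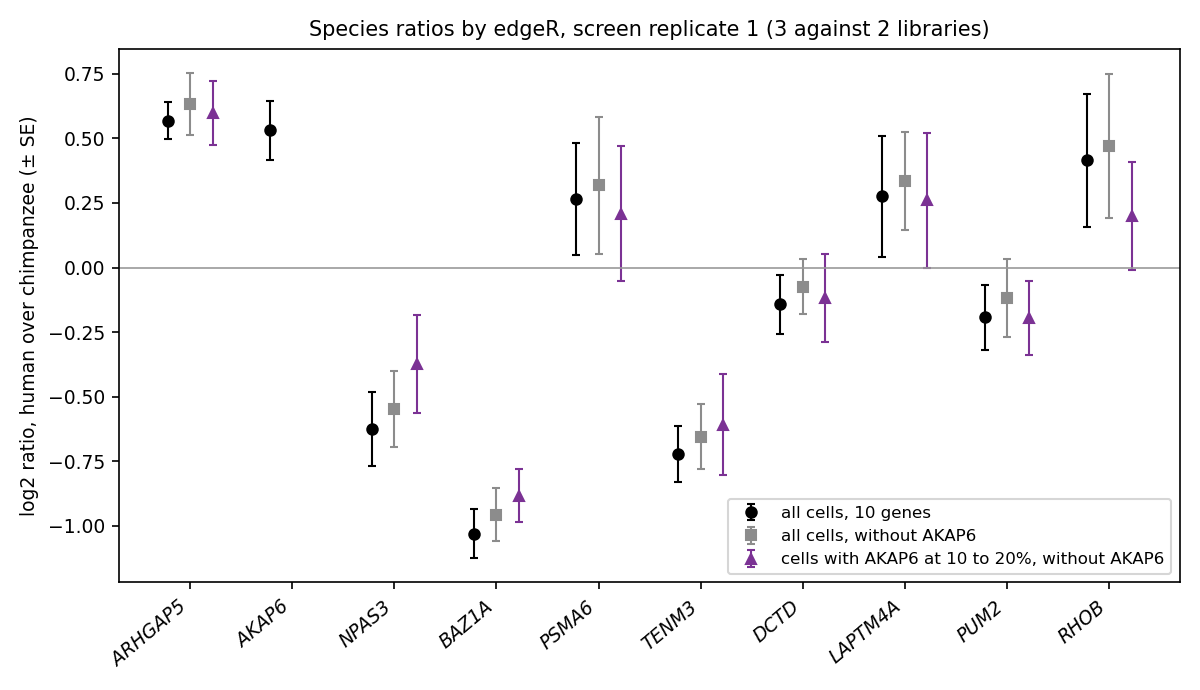
log2 ratio of human over chimpanzee for each gene by edgeR, with bars of 1 SE, over all cells with 10 genes (circles), over all cells without AKAP6 (squares) and over cells with AKAP6 at 10 to 20% of gene UMIs (triangles). BAZ1A lies lowest in each fit, and the NPAS3 value moves from -0.55 to -0.37 between the squares and the triangles.

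Detection was compared next. As deposited, nearly every cell had every gene: all 10 were found in 96.3% to 99.8% of cells, depending on the library, and no gene was found in fewer than 97.5% of the cells of any library. Libraries stood apart for 1 gene on this scale (10%), AKAP6, found in all human cells and in 99.9% and 99.8% of chimpanzee cells. Detection was therefore also computed for cells of equal depth, as the share expected to keep at least 1 UMI when each cell is thinned at random to 100 gene UMIs. Thinning left out 10, 7 and 17 cells of human 1 to 3 and 3 and 154 of chimpanzee 1 and 2, which had fewer UMIs. Thinned detection stood apart for 5 genes (50%), 2 higher in human and 3 in chimpanzee. At equal depth, detection depends on the gene's share in each cell, so it is not independent of the shares compared above. No cell type on the panel is known to lack these genes, so the level given by free RNA in droplets was not measured.

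BAZ1A was the gene with the widest gap in detection. It was found in 81.7%, 83.3% and 85.3% of thinned human cells and in 97.7% and 95.3% of thinned chimpanzee cells, against 98.3%, 98.7% and 97.5% and 99.96% and 98.6% before thinning. The median thinned cell had 2 BAZ1A UMIs in each human library and 4 and 3 in chimpanzee 1 and 2. ARHGAP5 was found in 97.0%, 98.4% and 98.4% of thinned human and 94.3% and 94.0% of thinned chimpanzee cells. AKAP6 was found in 99.99%, 100% and 100% of thinned human cells and in 98.5% and 98.99% of thinned chimpanzee cells. TENM3 and DCTD stood apart by less than 1 percentage point, all values lying between 99.1% and 99.97%. The exact permutation p was 0.1 for ARHGAP5, AKAP6, BAZ1A and DCTD and 0.2 for TENM3, where 0.1 is the smallest possible, and the adjusted p was at least 0.25 for every gene.

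The species also differed in how much a gene's share varied between cells. Variation was measured as the coefficient of variation (CV) of a gene's share over cells with at least 100 gene UMIs, after counting noise was taken off. AKAP6 differed most. Its CV was 0.148, 0.142 and 0.140 in human 1 to 3, and 0.484 and 0.416 in chimpanzee 1 and 2. NPAS3 had CVs of 0.239, 0.246 and 0.234 in human and 0.399 and 0.501 in chimpanzee libraries. TENM3 had 0.215, 0.190 and 0.226 in human and 0.275 and 0.335 in chimpanzee libraries. RHOB (0.244, 0.194 and 0.212 against 0.352 and 0.302) and DCTD (0.159, 0.148 and 0.137 against 0.198 and 0.208) also stood apart. In these 5 of 10 genes (50%) every chimpanzee library was above every human one, and 0 genes stood apart with human above. The exact two-sided permutation p was 0.1 for each, the smallest that 3 against 2 libraries allow, with an adjusted p of 0.2.

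For the other 5 genes the libraries overlapped in CV. ARHGAP5, called between the species in level, had CVs of 0.308, 0.228 and 0.236 in human and 0.257 and 0.296 in chimpanzee libraries. BAZ1A had high CVs in both species, at 0.413, 0.690 and 0.623 in human and 0.345 and 0.528 in chimpanzee libraries. Part of this came from single cells. In 1 cell of human 2, BAZ1A gave 292 of 682 gene UMIs (42.8%), in 1 of human 3 it gave 327 of 841 (38.9%), and in 1 of chimpanzee 2 it gave 598 of 852 (70.2%). Without the 1 cell of highest BAZ1A share in each library, the CVs were 0.387, 0.361 and 0.477 in human and 0.338 and 0.421 in chimpanzee libraries. A single cell of chimpanzee 1 likewise had TENM3 at 64.7% of 1153 gene UMIs, and without such cells the TENM3 CVs were 0.213, 0.184 and 0.186 in human and 0.256 and 0.332 in chimpanzee libraries, still apart. Doublets were not called and no such cell was removed.

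**Figure D3:**
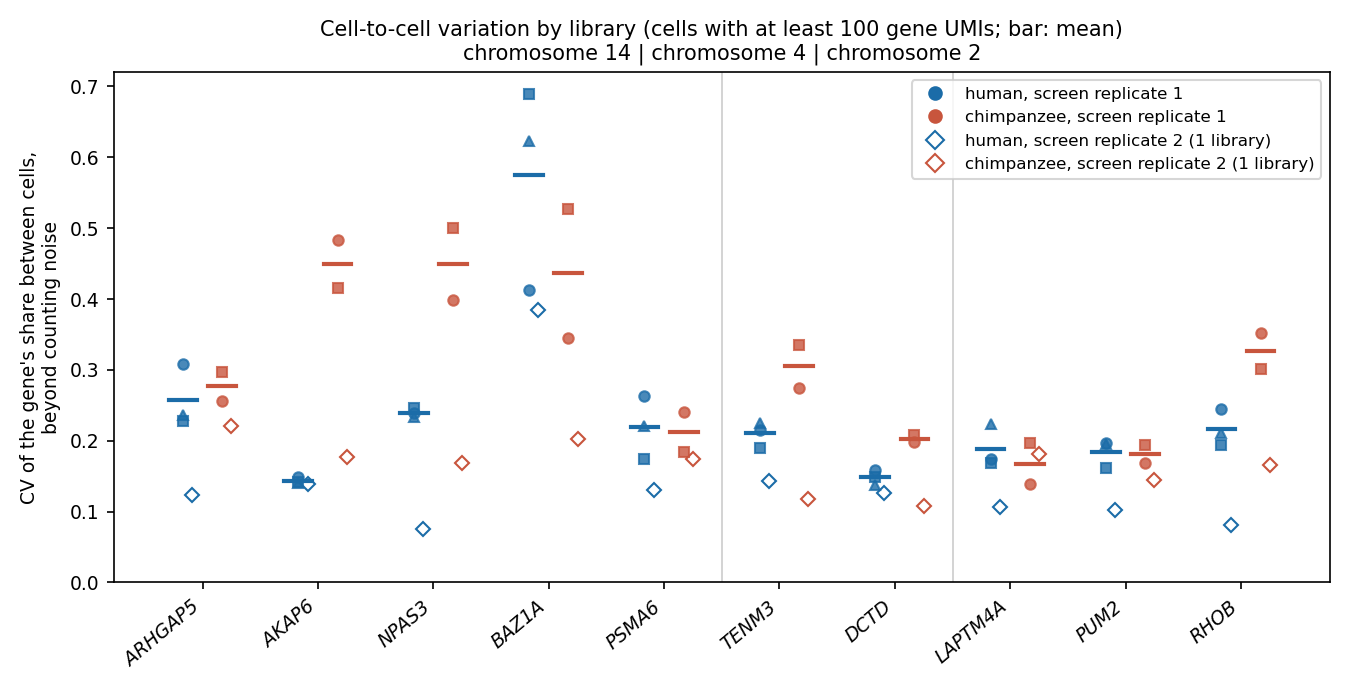
CV of each gene's share between cells beyond counting noise, for cells with at least 100 gene UMIs, with 1 filled point per library of screen replicate 1, bars at group means and open points for screen replicate 2. AKAP6 lies at 0.140 to 0.148 in the human and at 0.416 and 0.484 in the chimpanzee libraries of screen replicate 1, and at 0.139 and 0.177 in those of screen replicate 2.

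The pair of screen replicate 2 with the same panel had a smaller gap in CV, 0.139 in human and 0.177 in chimpanzee for AKAP6. NPAS3 had CVs of 0.0750 in human and 0.168 in chimpanzee, and RHOB had 0.0814 and 0.166, lower in each species than in any of its libraries of screen replicate 1. For TENM3 (0.143 in human, 0.118 in chimpanzee) and DCTD (0.127 and 0.108) the order of the species was turned. Of the 5 genes that stood apart in screen replicate 1, 3 thus had the higher CV in chimpanzee in this pair. For AKAP6 this order depended on the cell minimum. Over cells with at least 200 gene UMIs (1330 human and 1074 chimpanzee), its CV was 0.259 in human and 0.197 in chimpanzee. NPAS3 (0.113 and 0.160) and RHOB (0.129 and 0.172) kept the order there. That pair differed in other ways too. It was shallower, with a median of 139 (human) and 126 (chimpanzee) gene UMIs per cell, and 456 and 1450 cells fell below 100. The leading guide barcode took a median of 7.93% (human) and 10% (chimpanzee) of a cell's guide UMIs, against 39.1% to 51.1% in the libraries of screen replicate 1. Whether the CVs depend on the depth or on the guide share was not tested. In the 4 libraries of screen replicate 2 with a 21-gene panel, 7 of the 10 genes could be compared on their own total, over cells with at least 50 UMIs of these 7. This kept 1383 of 3825 and 2934 of 4621 human cells, and 5336 of 5825 and 3569 of 4428 chimpanzee cells. The species are thus compared there on unlike fractions of their cells. On that scale the AKAP6 CV was 0.342 and 0.304 in human and 0.676 and 0.824 in chimpanzee libraries, against 0.141, 0.119 and 0.136 and 0.519 and 0.429 in screen replicate 1. NPAS3 overlapped in the 21-gene libraries, with CVs of 0.378 and 0.364 in human and 0.296 and 0.368 in chimpanzee, and so did TENM3, with 0.284 and 0.266 against 0.277 and 0.312. DCTD had 0.196 and 0.189 against 0.217 and 0.233, and RHOB was not among the 7 genes.

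The distribution of AKAP6 over cells showed where this variation lay. In 1 random thinning of each cell to 100 gene UMIs, the 10% of cells lowest in AKAP6 had at most 9, 10 and 11 of its UMIs in human 1 to 3, and at most 3 and 4 in chimpanzee 1 and 2. The 10% of cells highest in AKAP6 began at 18, 19 and 22 UMIs in human and at 17 and 18 in chimpanzee libraries, so the distributions differed less at the upper end. Cells with at most 2 AKAP6 UMIs per 100 made up 1 of 1354, 0 of 1192 and 0 of 1690 human cells. They made up 236 of 2797 (8.44%) cells in chimpanzee 1 and 191 of 2953 (6.47%) in chimpanzee 2. In screen replicate 2, they made up 0.0281% of human and 1.403% of chimpanzee cells of the same panel. If all cells of a library had the same AKAP6 share, binomial counting alone would give 0.328% in chimpanzee 1 and 0.0576% in chimpanzee 2. For that chimpanzee library of screen replicate 2 it would give 0.565%, so counting noise can make up a larger part of its low cells. The limit of 2 UMIs was chosen after the distribution was seen.

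**Figure D4:**
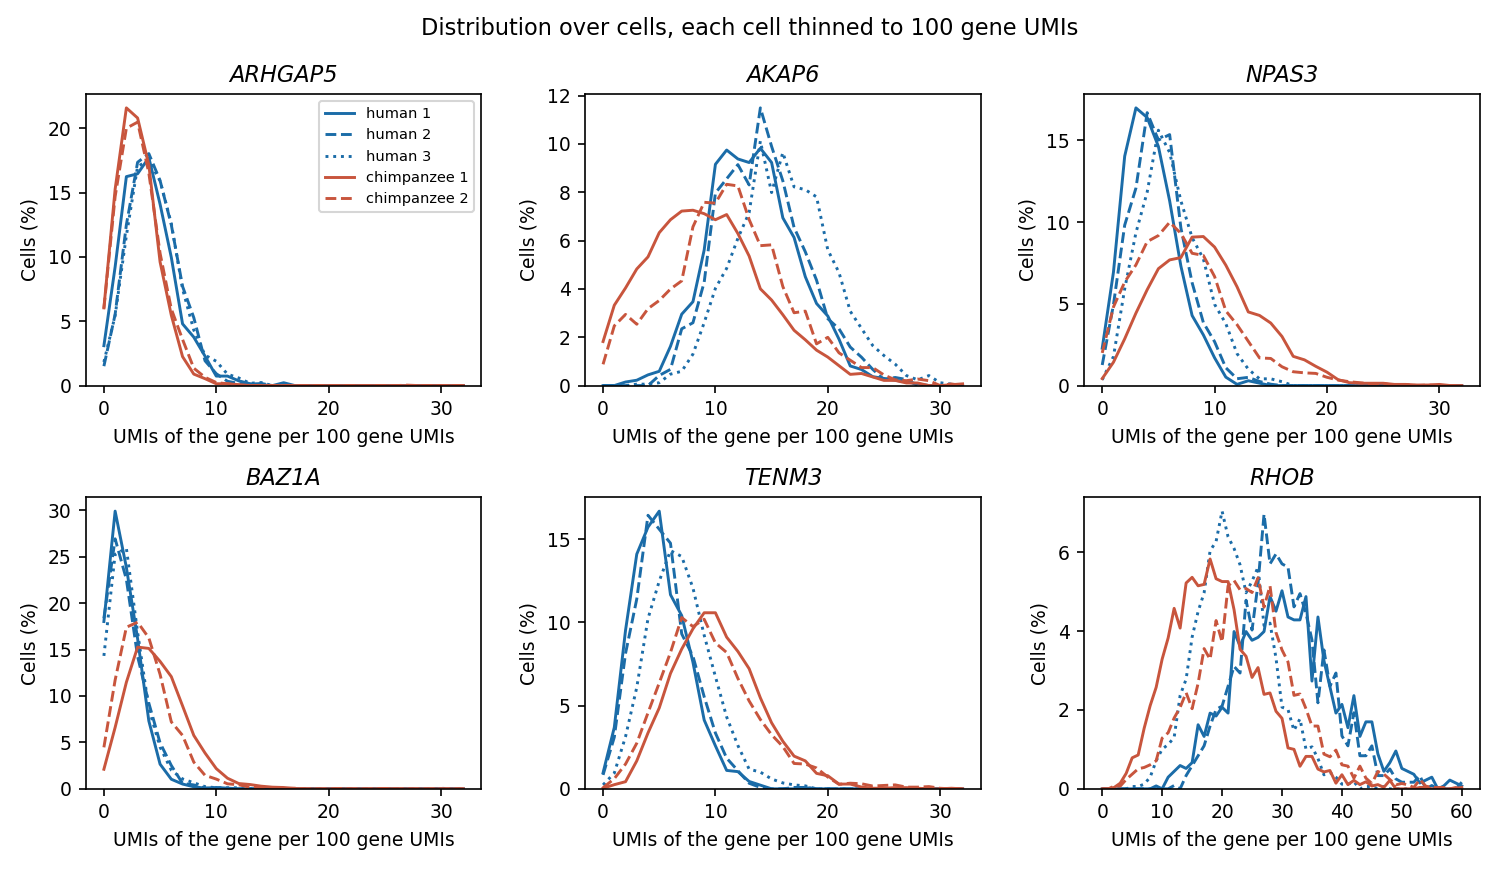
Percent of cells with a given number of UMIs of a gene after each cell is thinned to 100 gene UMIs, for 6 genes, with 1 line per library (blue human, red chimpanzee). The AKAP6 lines of both chimpanzee libraries extend to 0, where 0 human cells of these libraries lie, and the BAZ1A, TENM3 and NPAS3 lines of chimpanzee are wider and lie further right.

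The chimpanzee cells low in AKAP6 had a different mix of the 9 other genes, taken as shares of those 9 alone. NPAS3 made up 13.1% in the low and 9.77% in the other cells of chimpanzee 1, and 12.7% and 7.96% in chimpanzee 2. BAZ1A made up 6.42% and 5.06% in chimpanzee 1 and 7.12% and 4.16% in chimpanzee 2, and TENM3 made up 13.6% and 11.03%, and 13.8% and 10.8%. RHOB lay lower, at 13.5% against 22.3% in chimpanzee 1 and 17.9% against 28.1% in chimpanzee 2, log2 differences of -0.72 and -0.64. The 3 genes that were called higher in chimpanzee were thus also higher in the cells low in AKAP6, in both libraries. So was ARHGAP5, which was called higher in human, by less (log2 differences of 0.07 in chimpanzee 1 and 0.17 in chimpanzee 2). A lower RHOB share by itself raises the shares of the other genes. Its part in these rises was not tested, and a rise as small as that of ARHGAP5 need not be more than this. DCTD changed sign between the libraries (0.14 and -0.11), and PSMA6 lay at -0.01 and -0.29. LAPTM4A and PUM2 differed by at most 0.04 on the log2 scale. Low cells were shallower, with a median of 434 gene UMIs against 585 in chimpanzee 1 and 234 against 254 in chimpanzee 2. The part of depth in these differences was not tested, and 2 libraries give no test.

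Cells were then compared at like AKAP6, by ranges of 5 percentage points of the cell's AKAP6 share. In chimpanzee 1, NPAS3 fell from range to range, from 13.1% of the 9 other genes' UMIs (AKAP6 under 5%) to 10.8%, 8.70% and 6.34% (AKAP6 at 15 to 20%). In chimpanzee 2 the values were 12.5%, 9.21%, 7.60% and 5.21%. In human cells the order was the opposite and the steps were smaller: from AKAP6 at 5 to 10% up to 15 to 20%, NPAS3 made up 4.40%, 4.85% and 5.26% in human 1, 5.50%, 5.78% and 6.06% in human 2, and 6.22%, 7.24% and 7.49% in human 3. At AKAP6 of 10 to 15% the species did not overlap in NPAS3, as both chimpanzee values were above all 3 human ones. At AKAP6 of 15 to 20% they overlapped. In chimpanzee 1 and 2 the lower of these ranges held 895 and 1297 cells, and the higher one 264 and 395. The other genes were compared at AKAP6 of 15 to 20%. BAZ1A did not overlap there, with 2.14%, 2.28% and 2.36% in human and 3.78% and 3.41% in chimpanzee libraries. TENM3 had 5.89%, 6.32% and 8.17% against 9.46% and 10.2%, and ARHGAP5 had 4.503%, 5.18% and 5.27% against 3.15% and 3.18%. The human 3 values of BAZ1A (6.49%) and TENM3 (12.1%) at AKAP6 of 5 to 10% rest on 48 cells, and a single cell with very high BAZ1A or TENM3 can shift such a value.

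**Figure D5:**
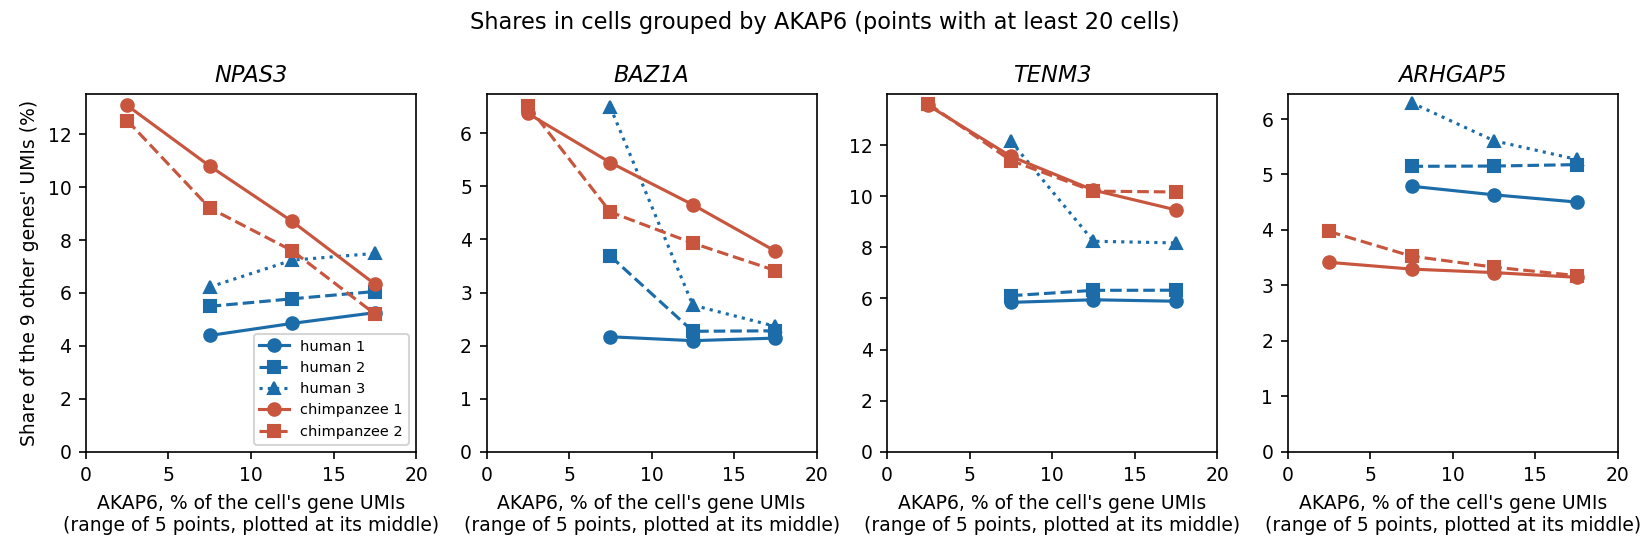
Share of NPAS3, BAZ1A, TENM3 and ARHGAP5 in the UMIs of the 9 genes other than AKAP6 (y axis, percent) for cells grouped by their AKAP6 share (x axis, percent), with 1 line per library and points with at least 20 cells. NPAS3 falls along AKAP6 in both chimpanzee libraries. It is above every human library at AKAP6 of 10 to 15%. At 15 to 20% it reaches 6.34% and 5.21%, inside or just below the human range of 5.26% to 7.49%. BAZ1A and TENM3 stay higher in chimpanzee at 10 to 20%.

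The species test was repeated on cells with AKAP6 at 10 to 20%, an alternative chosen after these patterns were seen. This range held 89.1%, 91.6% and 86.4% of the cells with at least 100 gene UMIs in human 1 to 3 but 41.4% and 57.3% in chimpanzee 1 and 2. Over the 9 other genes, 2 were called (22.2%; edgeR), against 4 of the same 9 over all cells. BAZ1A kept its call at a log2 ratio of -0.88 ± 0.10 (edgeR, adjusted p = 0.000529), and so did ARHGAP5 at 0.60 ± 0.12 (adjusted p = 0.00861). NPAS3 was at -0.37 ± 0.19 and not called (edgeR, adjusted p = 0.202), against -0.55 ± 0.15 over all cells (adjusted p = 0.0204). TENM3 was at -0.61 ± 0.20 (edgeR, adjusted p = 0.0511), against -0.65 ± 0.13 (adjusted p = 0.00554). The difference between the NPAS3 values in the 2 sets of cells was not tested, and the cells were chosen on a measured gene that itself differs between the species.

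Drawing 1 thinned cell from each species gave a measure of how far the distributions overlap. Over the 6 pairs of a human with a chimpanzee library, the human cell had more BAZ1A in 16.1% to 29.1% of draws (median 22.2%, ties counted as equal parts), and more TENM3 in 13.6% to 30.7% (median 18.8%). It had more AKAP6 in 63.6% to 84.1% (median 75.3%) and more ARHGAP5 in 60.6% to 69.4% (median 67.1%). NPAS3 reached from 17.02% to 44.3% (median 29.4%). Between libraries of 1 species the same measure ran from 44.7% to 61.6% for BAZ1A, 31.9% to 55.0% for TENM3, 43.2% to 48.9% for ARHGAP5, 32.1% to 44.8% for AKAP6 and 31.1% to 63.3% for NPAS3. For BAZ1A, TENM3 and ARHGAP5 every pair across species was farther from 50% than any pair within a species, which was not so for AKAP6 and NPAS3. The thinned counts of single cells thus overlapped between the species for every gene, also where the libraries did not. Counting noise was not taken off in this measure and widens the overlap, so it does not show how far the cells' own levels overlap.

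The gene with most UMIs in a cell was mostly RHOB or PUM2, counted in cells thinned to 100 gene UMIs with ties split evenly. RHOB led in 85.1%, 87.0% and 54.7% of cells in human 1 to 3 and in 33.1% and 64.6% in chimpanzee 1 and 2. PUM2 led in 10.7%, 11.1% and 32.01% and in 61.5% and 28.2%. Human 3 and chimpanzee 2 resembled each other more in this than they did other libraries of their own species. These 2 libraries also have neighbouring library codes, apart from those of human 1, human 2 and chimpanzee 1. NPAS3 led in 1.59% and 1.27% of cells in chimpanzee libraries and in 0% of human cells, and TENM3 led in 1.46% and 2.33% of chimpanzee cells and in at most 0.217% of human cells.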

How the data were processed

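Counts of UMIs per cell and probe were deposited as 1 table per library, per the file headers, and all values were whole numbers. Tools named in the submitters' processing notes are fastp, UMI-tools, Bowtie and SAMtools, with the build hg38. How cell barcodes were kept, and the tools' versions and roles, is not given in the sources used here. The 10 gene columns were kept and 28 guide barcode columns left out. No map from barcode to guide or to a control was used here. Shares, detection and CVs therefore pool cells of all guides, and whether guides affected the species differences was not tested.

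Groups came from the labelled cell line and screen replicate, and library numbers within a group only name them. Members, lists and tests were chosen with earlier results of these data known. All 10 genes are named. Sums of UMIs over all cells, 1 per gene and library, were tested with edgeR 4.0.16 (R 4.3.3), by the quasi-likelihood method with legacy=TRUE, a common dispersion, TMM factors and Benjamini-Hochberg adjustment over 10 genes at 0.05. The spread is shared between genes (prior degrees of freedom 2.55, residual 3). The fit was also run on simulated counts in which fewer genes changed than were called here, so that run is no check of these calls. DESeq2 1.42.0 and limma 3.58.1 gave alternatives. The library values of detection and CV had exact permutation tests, two-sided, with 10 splits and adjustment over 10 genes. Thinned detection is the hypergeometric expectation, rounded to 2 decimals of a percent. The CV uses the second factorial moment. Intervals are Clopper-Pearson. Promoter windows are from RefSeq (GRCh38.p14). Probe sequences were not used here.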

Additional observations from a re-analysis of the deposited data

Results flagged for a closer look

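The 28 guide barcode columns, which the comparisons did not use, held a signal larger than that of the genes. The median cell had between 1006 (chimpanzee 2) and 1282 (human 2) guide-barcode UMIs in the 5 libraries, against 244 to 567.5 gene UMIs. Their names give neither a target nor a control, and no control level is set beside them.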

How the results depend on the processing

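The 5 calls between the species stayed at 5 genes under DESeq2 size factors, no TMM factors, centred log2 shares with limma, a fit without RHOB and PUM2, DESeq2, edgeR's newer default, a filter on low counts, 3 choices of cells, equal weight per cell, and a block for sets of library codes. Leaving out 1 library gave 4 to 6 calls (with 1 chimpanzee library left, on the spread of the human libraries alone), from the changes given above for NPAS3, AKAP6 and PSMA6, whose ratio reversed to -0.0363 without chimpanzee 1. In cells with AKAP6 at 10 to 20%, 2 of 9 genes were called. BAZ1A (-1.16 to -0.88) and ARHGAP5 (0.49 to 0.65) kept direction and call in all 19 alternatives. Among these, the filter on low counts left out no gene and so repeated the main fit, and the minimum of 50 gene UMIs left out few cells. In screen replicate 1, CVs stood apart for 5 genes under other cell minimums and for 5 to 7 without 1 library. Leaving out a library can only keep or raise such a count, so it does not test it. Without chimpanzee 2, BAZ1A and LAPTM4A were added with human above (chimpanzee 1 at 0.345 and 0.139, lowest human library at 0.413 and 0.168). In the pair of screen replicate 2 with the same panel, the order of the species in AKAP6 CV turned at a minimum of 200 gene UMIs. With thinning to 200 gene UMIs, libraries stood apart in detection for 3 genes in place of 5, and to 50 for 7. Leaving out 1 library gave 29 to 36 pairs of genes apart, also a count that cannot fall in this way. It moved the difference in log2 median gene UMIs between -0.86 and 0.36, reversed without chimpanzee 1 (0.36). No paired analysis by replicate number was possible because all 5 libraries are of 1 screen replicate and their numbers only name them. The block used the 2 sets of library codes instead. The fit rests on 3 against 2 libraries and 1 line per species.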
